A study of Homo sapiens with 8 samples.

Results

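The genes described here are 10 genes of cellular iron uptake, storage, export and regulation, chosen by name from the 58051 genes of the count tables: *TFRC*, *SLC11A2*, *SLC39A14*, *FTH1*, *FTL*, *NCOA4*, *HMOX1*, *SLC40A1*, *IREB2* and *ACO1*. Of these 10, 9 had enough counts to be tested, and *SLC40A1* did not. RNA was sequenced from the human melanoma cell line A375, in 4 lines (WT1 to WT4) that each grew from a single cloned cell. Each line was kept for 12 h in DMEM with 10% fetal bovine serum (FBS) or in DMEM without it, after growth with FBS, which gave 8 libraries, 1 per line and condition. All 4 lines are labelled wild type, none carries an engineered change by the labels, and each is 1 clone, so that the spread between lines is a spread between clones of one tumor. The submitters' stated aim was to find secreted factors behind cell junctions that form when serum is removed. FBS is the usual source of transferrin, the protein that carries iron to cultured cells, but transferrin and iron were not measured in the medium or in the cells.

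Iron enters most cells as transferrin bound to the transferrin receptor (*TFRC*), is released in endosomes, crosses the endosomal membrane through DMT1 (*SLC11A2*) and is used or stored inside ferritin, a shell of heavy (*FTH1*) and light (*FTL*) chains. NCOA4 carries ferritin to lysosomes, where the iron is set free again, and ferroportin (*SLC40A1*) is the exporter. The iron regulatory proteins IRP1 (*ACO1*) and IRP2 (*IREB2*) bind short hairpins, the iron-responsive elements, in several of these mRNAs when cells are short of iron. Binding in the 3′ untranslated region (UTR) of *TFRC* protects that mRNA from decay, whereas binding in the 5′ UTR of the ferritin and ferroportin mRNAs blocks their translation, a step that RNA counts do not show.

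The iron-responsive elements are shown because the ferritin, ferroportin and receptor mRNAs share them, and their place separates the receptor from the ferritins. They were searched in GENCODE transcripts, on the sense strand, as a C, 5 bases of any kind, CAGTG, 1 base other than G and 5 bases that pair with the 5 before the loop (G with T allowed). Capitals mark the unpaired C and the 6-base loop, and positions are counted from the first base of the transcript. The first 3 lie in 5′ UTRs and the last 4 in the 3′ UTR of *TFRC*.
FTH1, transcript ENST00000273550.12, bases 34 to 60: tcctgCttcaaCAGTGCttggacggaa
FTL, transcript ENST00000331825.11, bases 28 to 54: tcttgCttcaaCAGTGTttggacggaa
SLC40A1, transcript ENST00000261024.7, bases 99 to 125: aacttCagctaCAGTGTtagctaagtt
TFRC, transcript ENST00000698280.1, bases 3682 to 3708: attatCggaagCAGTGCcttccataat
TFRC, same transcript, bases 4086 to 4112: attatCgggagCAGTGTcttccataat
TFRC, same transcript, bases 4151 to 4177: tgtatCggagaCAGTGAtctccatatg
TFRC, same transcript, bases 4198 to 4224: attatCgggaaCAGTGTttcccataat

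In the longest coding transcript of each gene, the pattern was found in the 5′ UTR of 17 of 19583 protein-coding genes (0.0868%). It was found in the 3′ UTR of 117 (0.597%), and *TFRC* was 1 of 2 genes with more than 1 match there. The listed genes were searched in all their coding transcripts, so these shares come from a narrower search. The other 6 genes held no match to these letters in the UTRs searched, and the pattern does not allow bulges or other loops. A match is a description of the sequence, and binding was not measured.

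Sequencing depth, as counts assigned to genes, was 29759279 to 67101005 per serum library and 37847737 to 73341551 per serum-free library. Reads placed at several sites made up 22.7% of all counted reads in WT1 and 16.8% in WT2 with serum, against 5.73 to 10.1% in the other 6 libraries, so both libraries that stand apart are serum libraries. The melanocyte lineage markers were low: *SOX10*, *PMEL*, *TYR* and *TYRP1* were under 1 CPM (counts scaled to library size with edgeR's TMM factors) in all libraries, and *SOX10* had no count. *MITF*, the lineage's master regulator, ran from 30.1 to 44.2 CPM, and *AXL*, a receptor typical of undifferentiated melanoma, from 309 to 656 CPM, while *SOX9*, another gene of the undifferentiated list, was at 0 to 0.64 CPM. *HBB*, a globin gene that defines red cells, was at 0 in every library and *PTPRC*, the pan-leukocyte marker, reached at most 0.0514 CPM. Of the 6 markers of each list, 5 were under 1 CPM in all libraries. The exceptions were *EPOR*, the erythropoietin receptor, at 4.85 to 11.7 CPM (higher without serum by 0.69 on the log2 scale, edgeR's adjusted p = 0.0178), and *LYZ*, lysozyme, at 2.5 to 7.55 CPM. In the GENCODE annotation, 85.6% of the exon bases of *CD68*, a macrophage marker under 1 CPM, also belong to other genes. For *SOX10* the share was 5.39%. Reads there may have been left uncounted as ambiguous if strand was not used, so both levels may be too low.

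The comparison of serum-free with serum medium asks which of the iron genes changed within 12 h. *TFRC*, *HMOX1*, *SLC39A14* and *IREB2* fell when serum was withdrawn, and none of the 9 tested genes rose at an adjusted p under 0.05 (quasi-likelihood test of edgeR, Benjamini-Hochberg adjustment over all 17671 tested genes). That is 44.4% of the tested iron genes, beside 25.1% of all tested genes (11.1% higher and 14% lower without serum). With the line as a replicate block, which pairs the 2 libraries of a line, *FTL* was called as well, as a rise, beside 45.7% of all genes called. CPM is a share of a library from many cells, so that less RNA per cell and fewer cells that express a gene cannot be told apart. The median change of the 9 genes was -0.091 on the log2 scale, and that of all tested genes 0.033.

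**Figure D1:**
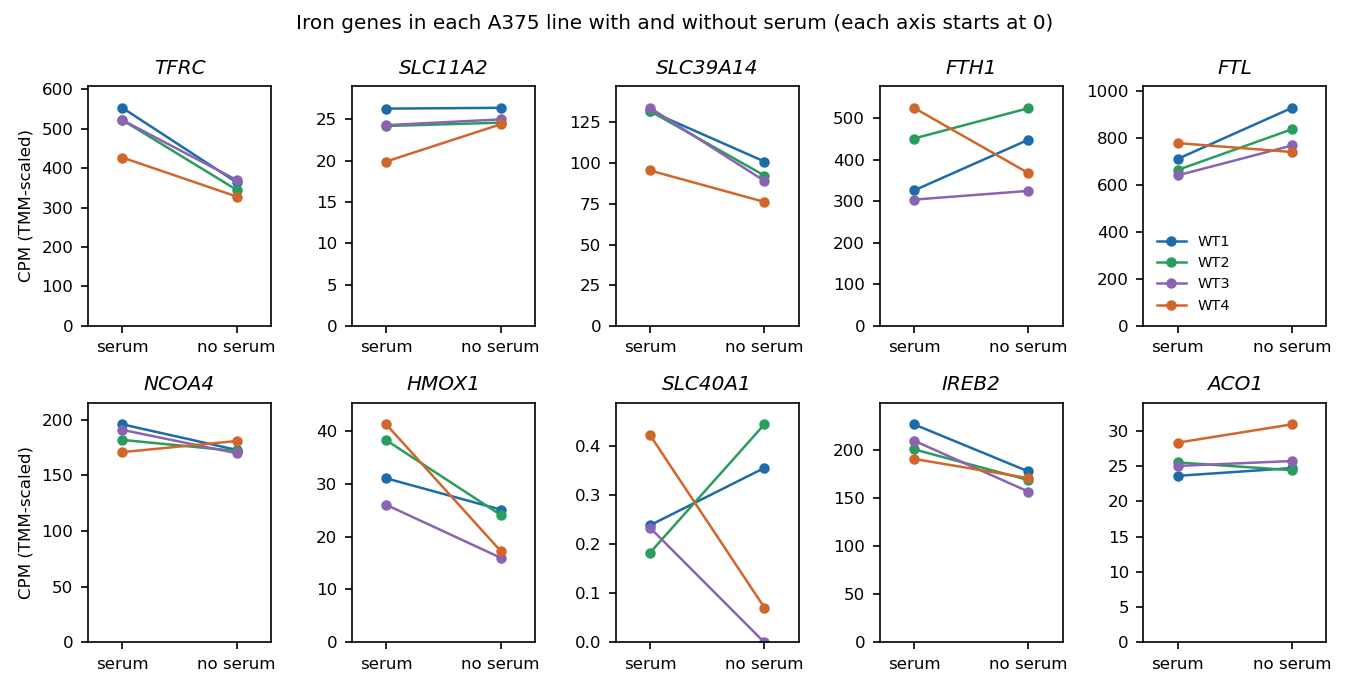
CPM (TMM-scaled, linear axes from 0) of each of the 10 genes with and without serum, 1 colour per line, with a line joining the 2 libraries of each A375 line. *TFRC*, *HMOX1*, *SLC39A14* and *IREB2* slope down in all 4 lines, whereas *FTH1* falls from 525 to 368 CPM in WT4 and is higher without serum in the other 3.

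*TFRC* (ENSG00000072274, chromosome 3 of GRCh38, 196049284 to 196082090) encodes the receptor that takes up transferrin-bound iron. With serum it was at 553, 522, 522 and 427 CPM in WT1, WT2, WT3 and WT4. Without serum it was at 364, 345, 370 and 328 CPM in the same order. Every serum-free library lay below every serum library, and WT4 was the lowest line in both media. The level fell by 30.5%, or by 0.52 ± 0.086 on the log2 scale (SE, n = 4 lines per condition, edgeR's adjusted p = 0.00317), and within lines the change ran from -0.60 in WT1 and WT2 to -0.38 in WT4. Groups that do not overlap in this direction were found for 15% of all tested genes. The call held in all 25 alternatives run, with changes between -0.60 and -0.38. The smallest change, -0.38, came with the block and a GC correction, so that its size depends on this choice. With both serum libraries rich in multiply placed reads left out, the change was -0.44 (edgeR's adjusted p = 0.048).

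*SLC39A14* (ENSG00000104635, chromosome 8, 22367278 to 22434129) encodes ZIP14, which imports iron that is not bound to transferrin, and also zinc and manganese. It was at 132, 132, 134 and 95.5 CPM with serum in WT1 to WT4. Without serum it was at 101, 92.4, 89.1 and 76.2 CPM. It was lower without serum in each of the 4 lines, as were 26.6% of all tested genes, but the groups overlap because WT4 with serum lay below WT1 without. The level fell by 27.4% (log2 fold change -0.46 ± 0.12, SE, edgeR's adjusted p = 0.0217), and with the line as block the adjusted p was 2.15e-05. Without the block the call was lost without the serum library of WT1, WT2 or WT3 (edgeR's adjusted p = 0.0618, 0.0589 and 0.0637), without line WT1, WT2 or WT3 (0.0732, 0.0967 and 0.117) and without the serum libraries of WT1 and WT2 together (-0.36, 0.188).

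*SLC11A2* (ENSG00000110911, chromosome 12, 50952263 to 51028886), the transporter that moves iron out of the endosome, stayed between 19.9 and 26.3 CPM with serum and between 24.4 and 26.4 CPM without. Its mean was 23.7 ± 2.70 CPM with serum and 25.1 ± 0.927 without (SD, n = 4), a log2 fold change of 0.083 with a 95% interval from -0.13 to 0.29 (edgeR's adjusted p = 0.557). It was higher without serum in each of the 4 lines, as were 28.8% of all tested genes. The difference was close to 0 in WT1, WT2 and WT3 (0.0093, 0.023 and 0.036 on the log2 scale) and 0.29 in WT4. *SLC11A2* was called only when the block was combined with a correction for GC content, at 0.19 (edgeR's adjusted p = 0.0207). The lower end of the interval, -0.13, lies above the change of *TFRC* described before it.

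*FTH1* (ENSG00000167996, chromosome 11, 61964285 to 61967634) encodes the ferritin heavy chain, which oxidises iron so that it can be stored. With serum it was at 326, 451, 304 and 525 CPM in WT1 to WT4. Without serum it was at 448, 524, 325 and 368 CPM. The groups overlapped across nearly their whole range, and the direction differed between lines: within lines the log2 change was 0.46, 0.22 and 0.10 in WT1, WT2 and WT3 and -0.51 in WT4. Over all lines the log2 fold change was 0.054 with a 95% interval from -0.43 to 0.53 (edgeR's adjusted p = 0.881), and the block gave 0.067 (adjusted p = 0.779). Without line WT4, the line that went the other way, the change was 0.27 and not called without the block (edgeR's adjusted p = 0.454). The block then gave 0.26 ± 0.056 (edgeR's adjusted p = 0.00111), in a fit added after the data were seen, which is given as a description. Leaving out WT1 turned the sign (-0.072 without the block, edgeR's adjusted p = 0.887), as did leaving out WT2 (-0.016, 0.973).

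*FTL* (ENSG00000087086, chromosome 19, 48965309 to 48966879) encodes the ferritin light chain, which helps to form the iron core. With serum it was at 710, 663, 640 and 777 CPM in WT1 to WT4. Without serum it was at 927, 836, 767 and 739 CPM. It was higher without serum in WT1, WT2 and WT3, by 0.39, 0.33 and 0.26 on the log2 scale, and WT4 differed by -0.073. The log2 fold change was 0.23 ± 0.089 (SE), which did not pass the threshold without the block (edgeR's adjusted p = 0.0882) and did with it (0.0123). The blocked call was lost without line WT1, WT2 or WT3 (0.17, 0.19 and 0.20, edgeR's adjusted p = 0.111, 0.0799 and 0.113). It also passed without the block when WT4 with serum was left out (0.28, edgeR's adjusted p = 0.0309) or the whole line WT4 (0.33, 0.0113), and under upper-quartile scaling (0.29, 0.0383), whereas with the block and a GC correction it was 0.12 (0.0571). Whether the lines differ in their response cannot be tested, since each line has 1 library per condition.

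The ferritin heavy and light chains together took 0.105% ± 0.0149 of gene counts with serum and 0.129% ± 0.0163 without (SD, n = 4), and the share was higher without serum in 3 of 4 lines. This difference did not pass an exact two-sided permutation test that ignores the pairing by line (p = 0.114, 0.171 after Benjamini-Hochberg adjustment over 3 values, smallest possible p 0.0286). The count ratio of *FTH1* to *FTL* was 0.572 ± 0.122 with serum and 0.508 ± 0.086 without (exact permutation p = 0.429, adjusted 0.429). An exact test that flips signs within lines gave p = 0.25 for the share and p = 0.25 for the ratio (smallest possible p 0.125). In serum the ratio was highest in WT2 (0.679) and WT4 (0.675), and lower in WT1 (0.459) and WT3 (0.475).

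Some limits are particular to the ferritins. In the lifted GENCODE annotation 63.2% of the exon bases of *FTH1* also belong to *BEST1*, a gene with 34 to 152 counts per library, and reads there may have been left uncounted as ambiguous if strand was not used, so the level of *FTH1* and its ratio to *FTL* may be too low. No exon base of the other 9 genes was shared with another gene in that annotation. Both chains also have many intronless pseudogene copies: the 25 named *FTH1P* genes together had 0.215 to 0.928% as many counts as *FTH1*, led by *FTH1P3*, *FTH1P2* and *FTH1P23*, and the 16 *FTLP* genes at most 0.0363% of those of *FTL*. Reads of *FTH1* and *FTL* placed at several sites are not in these counts, and their part in the values was not tested.

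*NCOA4* (ENSG00000266412, chromosome 10, 46005088 to 46030623), the receptor that delivers ferritin to lysosomes, was at 171 to 196 CPM with serum and 170 to 181 CPM without. The log2 fold change was -0.091 with a 95% interval from -0.23 to 0.050 (edgeR's adjusted p = 0.323), with lower values in 3 lines and a higher value in WT4. Without WT4 it was at -0.14 and not called (edgeR's adjusted p = 0.0602), and with the block at -0.14 as well (0.00646), in a fit added after the data were seen that leaves out the line of opposite sign. For *NCOA4*, *FTH1* and *FTL* alike, WT4 was the line whose change had the opposite sign.

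*HMOX1* (ENSG00000100292, chromosome 22, 35381096 to 35394207) encodes haem oxygenase 1, an inducible enzyme that opens the haem ring and releases its iron. With serum it was at 31.0, 38.2, 26.0 and 41.2 CPM in WT1 to WT4. Without serum it was at 25.1, 24.1, 16 and 17.3 CPM. All serum-free values lay below all serum values, although WT3 with serum and WT1 without were less than 1 CPM apart. The level fell by 39.4% (log2 fold change -0.72 ± 0.19, SE, edgeR's adjusted p = 0.0221, and 3.94e-04 with the block), from -0.30 in WT1 to -1.25 in WT4. Without the block the call was lost without the serum library of WT2 (edgeR's adjusted p = 0.0585), the serum-free library of WT3 or WT4 (0.0564 and 0.0633), line WT1, WT2 or WT4 (0.0512, 0.0652 and 0.105) and without the serum libraries of WT1 and WT2 together (0.137). The change stayed between -0.88 and -0.54 in all 25 alternatives.

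*SLC40A1* (ENSG00000138449, chromosome 2, 189560590 to 189580786), which encodes ferroportin, the iron exporter, was close to undetected. It had 9, 12, 10 and 12 counts with serum and 15, 34, 0 and 4 without in WT1 to WT4. The 0 in WT3 without serum allows up to 0.0793 CPM at 3 counts, for counting error only. It did not pass the filter on low counts, and no fold change is given.

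*IREB2* (ENSG00000136381, chromosome 15, 78437431 to 78501453) encodes IRP2, whose protein level is set by iron-dependent degradation. With serum it was at 227, 201, 210 and 191 CPM in WT1 to WT4. Without serum it was at 178, 169, 157 and 171 CPM, and the groups did not overlap. The level fell by 18.7% (log2 fold change -0.30 ± 0.072, SE, edgeR's adjusted p = 0.0149, and 6.79e-04 with the block). *IREB2* has the lowest GC content of the 10 genes (38.2%), and with the block and a GC correction the change was -0.10 (edgeR's adjusted p = 0.0395), so that its size depends on this choice. Without the block the call was lost without line WT1, WT2 or WT3 (edgeR's adjusted p = 0.0702, 0.0749 and 0.085) and without the serum libraries of WT1 and WT2 together (-0.26, 0.117).

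*ACO1* (ENSG00000122729, chromosome 9, 32384643 to 32454769) encodes IRP1, which is a cytosolic aconitase when it carries an iron-sulphur cluster and binds RNA when it does not. It was at 23.6 to 28.3 CPM with serum and 24.4 to 30.9 CPM without, highest in WT4 in both media. The log2 fold change was 0.048 with a 95% interval from -0.17 to 0.27 (edgeR's adjusted p = 0.758). The count ratio of *IREB2* to *ACO1* was 8.17 ± 1.19 with serum and 6.44 ± 0.761 without (SD, n = 4). It was lower without serum in each of the 4 lines, and this difference did not pass the exact two-sided permutation test (p = 0.0857, adjusted 0.171) or the test that flips signs within lines, an exact test that cannot go below its value here (p = 0.125).

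**Figure D2:**
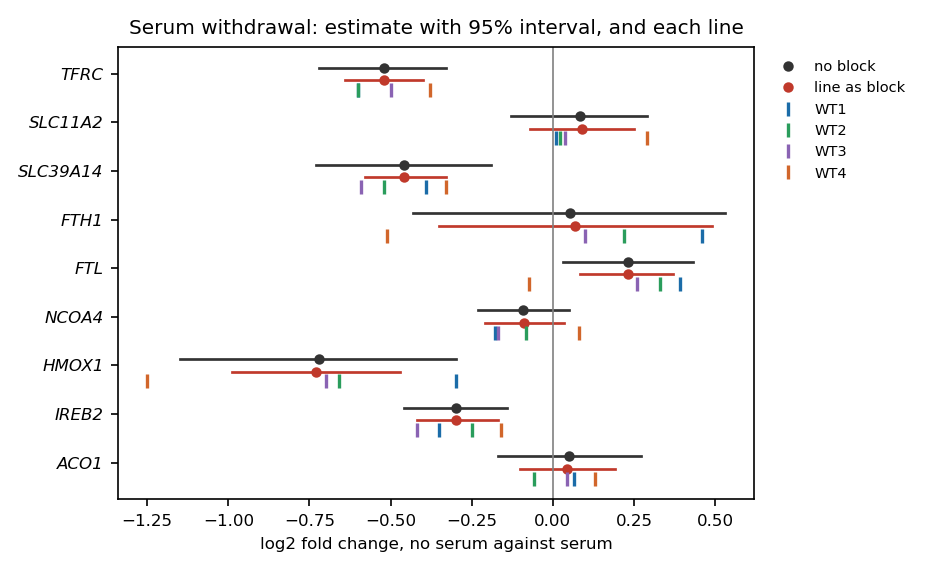
Log2 fold change without serum against serum for the 9 tested genes (horizontal axis), with edgeR's 95% interval without (black) and with (red) the line as block, and the change in each line as a coloured tick below. The ticks of WT1 and WT2 coincide for *TFRC* at -0.60, and the tick of WT4 lies apart from the other 3 for *FTH1* at -0.51.

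Differences between lines were tested after removing the effect of serum. *SLC39A14* was the one iron gene of 9 past the threshold (edgeR's F test, adjusted p = 0.00542), beside 22.9% of all tested genes. Its mean over both media was 116, 112, 112 and 85.9 CPM in WT1 to WT4, so that the lines WT1 to WT3 were nearly level and WT4 lay 1.35 times below the highest line. Without WT4, *SLC39A14* no longer passed (edgeR's adjusted p = 0.618), whereas *FTH1* (2.25e-05), *FTL* (0.00692) and *HMOX1* (2.06e-04) did. That fit called 3296 genes in all, against 4055 with all 4 lines. For *FTH1* the means of WT1, WT2 and WT3 were 387, 488 and 314 CPM. For *HMOX1* they were 28.0, 31.2 and 21.0 CPM, so that WT2 was highest and WT3 lowest for both genes. The identity of WT4 rests on its labels, since its deposited counts carry another name.

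Levels of different genes were compared as RPKM, a count scaled to merged exon length and library size. *FTL* was highest, at 801 ± 69.5 RPKM with serum and 938 ± 96.2 without (SD, n = 4), above 99.9% of the 17425 tested genes with a known length. *FTH1* came next at 200 ± 52.3 and 208 ± 44.1 RPKM, then *NCOA4* at 46.4 ± 2.74 and 43.6 ± 1.25 and *TFRC* at 29.1 ± 3.15 and 20.2 ± 1.09. Each of these stood apart from its neighbour in every library.

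*IREB2* (19.2 ± 1.43 RPKM with serum), *SLC39A14* (17.9 ± 2.69) and *HMOX1* (14.8 ± 2.99) formed a middle group whose ranges with serum overlap from one to the next. Without serum they were at 15.6 ± 0.806, 13 ± 1.48 and 8.94 ± 2.02 RPKM, and *HMOX1* then lay below *SLC39A14* in every library. *ACO1* (3.39 and 3.50 RPKM) and *SLC11A2* (2.39 and 2.54) were near the median of all these genes (2.75 and 2.93), and *SLC40A1* was at 0.0639 and 0.0517. With the longest transcript's length *TFRC* ranked above *NCOA4* (73.6 against 53.1 RPKM with serum) and *SLC11A2* above *ACO1* (5.73 against 3.44), so both orders depend on the length used. The levels depend on it too: with serum *FTH1* was then at 334 RPKM in place of 200 and *IREB2* at 32.8 in place of 19.2, with their ranks kept.

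**Figure D3:**
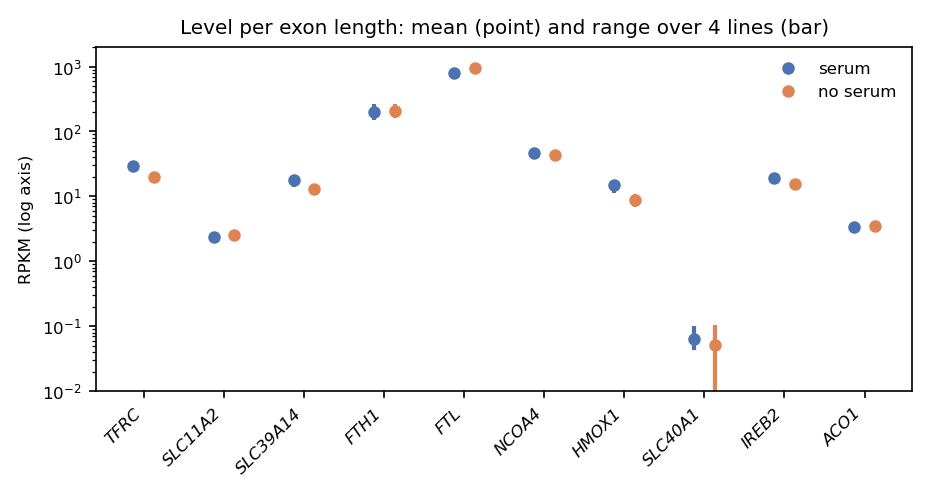
RPKM on a log axis for the 10 genes with and without serum, as the mean (point) and the range over the 4 lines (bar). The genes run from *FTL* at 801 RPKM with serum to *SLC40A1* at 0.0639, whose bar without serum reaches 0 and is drawn to the axis.

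The genes whose log2 CPM over the 8 libraries was most like that of each of 3 iron genes were sought among the 11531 genes that code for protein and averaged 100 counts or more. For *TFRC* they were *PUM3*, *TAF9* and *DIS3* (Pearson r = 0.996 each), which all fell without serum, by 0.58, 0.50 and 0.42 on the log2 scale (edgeR's adjusted p = 0.00456, 0.00498 and 0.00454). For *FTH1* they were *ACTN4*, *DNTTIP1* and *EHD1* (r = 0.932, 0.929 and 0.927), none of which passed the test. For *HMOX1* they were *APEX2*, *RPS6KA4* and *UBQLN2* (r = 0.969, 0.968 and 0.964), of which *APEX2* and *RPS6KA4* fell, by 0.32 and 0.28 on the log2 scale (edgeR's adjusted p = 0.0136 and 0.0362), and *UBQLN2* did not pass (-0.10, 0.263). The 8 points are 4 lines in 2 media and share library and depth, so that these values describe the libraries.

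The wider iron pathway was read from 6 lists of other genes, of which 86 genes were tested. Of these, 6 rose and 24 fell without serum, 34.9% in all beside 25.1% of all tested genes, and with the line as block 23 rose and 30 fell (61.6%, beside 45.7%). The rule for naming took up to 4 genes of each list with the smallest p among those past the threshold, 18 in all. Being chosen by that test, the 18 serve as examples. Where the block with a GC correction moved a named gene's change by more than 1.5 times, that value is given.

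Among 12 other genes of uptake, 1 rose and 2 fell, 25% in all and so at the share of all tested genes (25.1%). *CYBRD1*, a ferric reductase of the cell surface, rose from 15.3 ± 1.97 to 20.1 ± 1.45 CPM (SD, n = 4, log2 fold change 0.40, edgeR's adjusted p = 0.0257). *SLC39A8*, which encodes ZIP8, the closest relative of ZIP14, fell from 40.2 ± 5.76 to 27.9 ± 2.60 CPM (-0.53, edgeR's adjusted p = 0.00889). *SNX3*, a sorting nexin that returns the transferrin receptor from endosomes to the surface, fell from 92.8 ± 2.28 to 67.1 ± 5.47 CPM (-0.47, edgeR's adjusted p = 0.00235). The block raised these counts to 6 and 3 (75%, beside 45.7% of all tested genes). *MELTF*, melanotransferrin, named after its values were seen, was at 94.3 to 153 CPM with serum and 142 to 200 CPM without, and passed with the block (0.49, edgeR's adjusted p = 7.6e-06, against 0.0633 without the block).

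Of 7 tested genes of export and of the hepcidin axis, 1 was called without the block, as a fall (14.3%, below the share of all tested genes), and with the block 2 rose and 2 fell (57.1%). The gene called without the block was *FLVCR1*, first described as a haem exporter and since as a choline transporter, at 72.8 ± 4.95 and 60.7 ± 6.03 CPM (-0.26, edgeR's adjusted p = 0.0496, and -0.16 with the block and a GC correction). With the block *BMP6*, a ligand that induces hepcidin, and *NEO1*, a receptor that works with hemojuvelin, rose (0.65 and 0.24, edgeR's adjusted p = 0.00206 and 0.00814), and *ABCG2*, an efflux pump, fell (-0.41, 0.00707), a call that was lost with the added GC correction (-0.24, 0.101). These 3 were named after their values were seen. Of 8 genes of iron storage and delivery, 2 fell (25%, beside 25.1% of all tested genes), and the block gave 1 up and 2 down (37.5%, beside 45.7%). *GLRX3*, a cytosolic glutaredoxin that handles iron-sulphur clusters, fell from 158 ± 8.70 to 102 ± 3.67 CPM (-0.63, edgeR's adjusted p = 8.55e-04). *PCBP2*, an RNA-binding protein that is also an iron chaperone, fell from 271 ± 16.7 to 236 ± 9.72 CPM (-0.20, edgeR's adjusted p = 0.0485).

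Of 16 regulators, 1 rose and 6 fell (43.8%, beside 25.1% of all tested genes), and the block gave 4 up and 7 down (68.8%, beside 45.7%). *HIF1A*, the oxygen-sensitive transcription factor of which *TFRC* and *HMOX1* are known targets, fell from 285 ± 32.9 to 191 ± 10.5 CPM (-0.58, edgeR's adjusted p = 0.00242, and -0.34 with the block and a GC correction). *NFE2L2*, which encodes NRF2, an activator of *HMOX1* and the ferritin genes, fell from 117 ± 5.40 to 88.0 ± 2.22 CPM (-0.41, edgeR's adjusted p = 0.00204, and -0.26 with the block and a GC correction). *MTF1*, the metal-responsive transcription factor, fell from 69.5 ± 2.79 to 53.0 ± 2.12 CPM (-0.39, edgeR's adjusted p = 0.00273). *MAFK*, a small MAF protein that pairs with NRF2 or with the repressor BACH1, rose from 25.4 ± 3.24 to 39.4 ± 4.06 CPM (0.64, edgeR's adjusted p = 0.00396, and 0.41 with the block and a GC correction). Also named after their values were seen, *KEAP1* and *BACH1*, which restrain NRF2 or its targets, passed with the block and not without it (0.34 and 0.23, edgeR's adjusted p = 8.67e-04 and 0.0261), and the added GC correction gave 0.15 and 0.41. *FBXL5*, the iron-sensing ubiquitin ligase subunit that degrades IRP2, also named outside the rule, was at 48.7 to 57.2 CPM with serum and 50.2 to 54.2 without (-0.012, edgeR's adjusted p = 0.924), and was called as a rise with the block and a GC correction (0.16, 0.00919).

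Of 16 genes of haem synthesis, transport and breakdown, 4 rose and 2 fell (37.5%, beside 25.1%), and the block gave 8 up and 3 down (68.8%, beside 45.7% of all tested genes). *PPOX* and *FECH*, the last 2 enzymes of haem synthesis, rose from 10.6 ± 1.71 to 18.7 ± 0.731 CPM (0.82, edgeR's adjusted p = 0.00209) and from 29.6 ± 1.26 to 37.5 ± 2.00 CPM (0.34, 0.00747). *SLC48A1*, a lysosomal haem transporter, rose from 19.2 ± 2.00 to 29.1 ± 3.33 CPM (0.60, edgeR's adjusted p = 0.00463). *PGRMC1*, a haem-binding membrane protein, fell from 76.7 ± 7.47 to 62.8 ± 2.83 CPM (-0.29, edgeR's adjusted p = 0.0272). *ALAS1*, the rate-limiting enzyme of the pathway outside red cells and the fourth gene that rose, was named after its values were seen (0.38, edgeR's adjusted p = 0.0304).

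Of 27 genes that build or carry iron-sulphur clusters, 11 fell and none rose, 40.7% in all beside 25.1% of all tested genes (14% lower), and the block gave 2 up and 13 down (55.6%, beside 45.7%). *ISCA1*, a late assembly factor, fell from 47.1 ± 2.22 to 33.6 ± 1.63 CPM (-0.49, edgeR's adjusted p = 0.00192). *GLRX5*, the mitochondrial glutaredoxin, fell from 47.1 ± 3.40 to 33.7 ± 3.20 CPM (-0.48, edgeR's adjusted p = 0.00486) and *BOLA3* from 42.0 ± 1.35 to 28.9 ± 3.99 CPM (-0.54, 0.00524). The scaffold *ISCU*, also named outside the rule, was at 52.9 to 55.8 CPM with serum and 49.5 to 56.3 without. Another 7 that fell, named after their values were seen, were *HSPA9*, *FDX1*, *CISD1* and *CISD2*, *CIAO1*, *CIAO2A* and *CIAPIN1*, among them mitochondrial (*HSPA9*, *FDX1*) and cytosolic (*CIAO1*, *CIAPIN1*) factors. With the block and a GC correction *CISD1* was no longer called (-0.12, edgeR's adjusted p = 0.136, against -0.39 without either), and *CISD2*, *FDX1* and *CIAO2A* were at -0.22, -0.25 and -0.18 in place of -0.45, -0.39 and -0.32. The list's median change was -0.11 beside 0.033 for all tested genes.

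**Figure D4:**
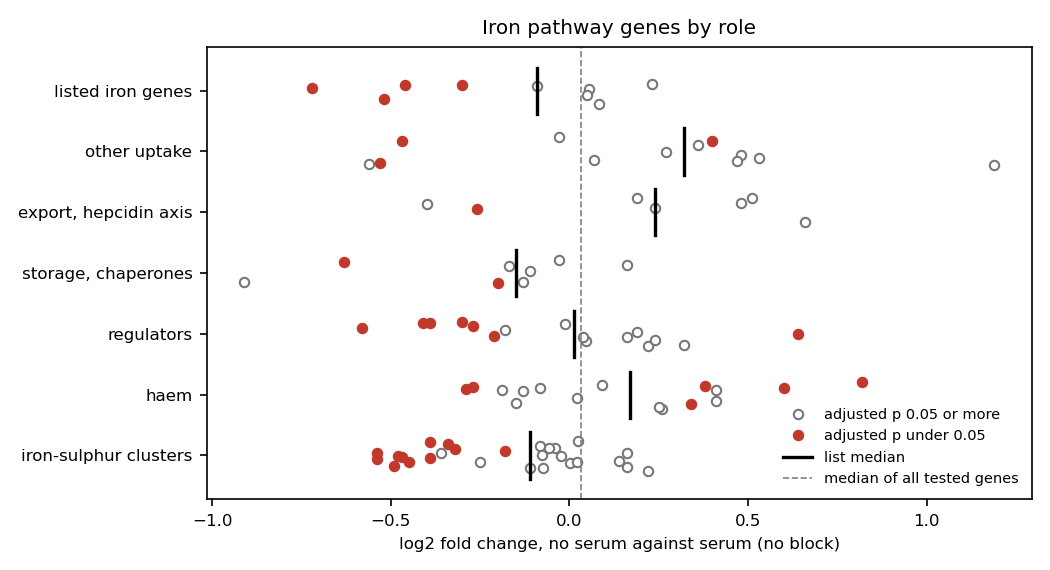
Log2 fold change without serum against serum (no block) for the 9 tested iron genes and 6 lists of other iron pathway genes, 1 point per gene, filled red at an adjusted p under 0.05, with each list's median (black) and that of all tested genes (dashed, 0.033). All 11 filled points of the iron-sulphur list lie to the left of 0, and 4 of the 6 of the haem list to the right.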

How the data were processed

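RNA depleted of ribosomal RNA was sequenced (NEBNext Ultra, paired-end). The authors deposited raw counts per gene, made with HTSeq on GRCh38; the processing notes also name cutadapt and TopHat2 2.0.11, while the paper's methods name another build for its own FPKM values. The annotation release and strand setting are not given in the sources used here. Libraries held 29759279 to 73341551 counts on genes, and 5 rows naming no gene were left out of library sizes. They held 16.1 to 31% of all counted reads, as ambiguous and multiply placed reads, with 0 reads listed outside genes. Symbols matched 55604 of 58051 genes. Positions are from RefSeq (GRCh38.p14), and lengths, GC content, exon overlap and sequences from GENCODE lifted to GRCh37, so no genome positions are given for the sequences.

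Counts were filtered (filterByExpr), TMM-scaled and analysed by edgeR 4.0.16 under R 4.3.3 (quasi-likelihood, robust, no block, Benjamini-Hochberg, threshold 0.05). The replicates are separate cloned lines. The line pairs the libraries: deviations from condition means correlated at 0.40 to 0.60 within lines and at most 0.13 between lines, so the blocked value is given where it changed the call of an iron gene, and blocked counts for each list. Alternatives were DESeq2 1.42.0, limma 3.58.1 (voom), other scalings and filters, a GC correction, and each library or line left out. Over the tested genes with a known GC content, the log2 fold change correlated with it (Spearman correlation 0.36). The tests were also run on simulated data with 200 changed genes and no GC trend. That setting is unlike these data, so it does not give the error rates here. Ratios were compared by exact permutation tests. Genes and lists were chosen with earlier results of these data known. Named genes are the 10 listed, up to 4 of each pathway list by smallest p among those called, 3 most alike to each of *TFRC*, *FTH1* and *HMOX1*, and the 3 ferritin pseudogenes with most counts; exceptions are marked in the text. Some genes of the lists are not reported here.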

Additional observations from a re-analysis of the deposited data

Results flagged for a closer look

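Among the 4 serum libraries, *SLC39A14* in WT4 (95.5 CPM) lay far below the other 3 (132, 132 and 134 CPM): its gap to the nearest library took up 0.946 of the group's whole range, above Dixon's critical value for 4 samples. It was 1 of 26 values searched, of which chance would set apart about 1 in 20. Without serum the WT4 value (76.2 CPM) was also the lowest, and without line WT4 the fall of *SLC39A14* with serum withdrawal was 0.50 on the log2 scale (edgeR's adjusted p = 6.94e-04 without the block).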

How the results depend on the processing

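The calls of *TFRC*, *HMOX1*, *SLC39A14* and *IREB2* were kept with DESeq2, voom, RLE and upper-quartile scaling, both filters, the block, and the block with a GC correction, and upper-quartile scaling added *FTL*. Leaving out libraries or lines gave 1589 to 6128 genes, 1 to 5 iron genes and 14 to 43 pathway genes called without the block, and 6185 to 8938, 4 to 7 and 40 to 53 with it. The block gave 8067 genes and 53 pathway genes in place of 4434 and 30, and with a GC correction 8201 and 53. It changed the call of *FTL* and of no other iron gene. Without both serum libraries rich in multiply placed reads, 1098 genes, 1 iron gene and 10 pathway genes were called, with only 2 serum libraries left, and the cause was not tested. Without WT4, 3 iron genes differed between lines in place of 1, beside 3296 of all genes in place of 4055.

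Signs turned for genes with no call, over a range of -0.079 to 0.27 for *FTH1* and -0.035 to 0.10 for *ACO1* with libraries or lines left out. *FTH1* was at -0.036 without WT1 with serum, -0.059 without WT3 with serum, -0.079 without WT2 without serum, -0.072 and -0.016 without lines WT1 and WT2, and -0.066 without line WT1 with the block. *ACO1* was at -0.035 without WT4 in serum-free medium and -0.014 without the 2 serum libraries, and *NCOA4* at 0.0093 with the block and a GC correction. The cause was not tested. *SLC40A1* was too low to compare at this depth, and p-values measure the spread between 4 clones of one cell line only.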
